A study of Arabidopsis thaliana with 4 samples.

Results

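The genes that carry the decision to flower, or act directly on those that do, were followed through the open chromatin of Arabidopsis thaliana flowers. They were FT (AT1G65480), TSF (AT4G20370), TFL1 (AT5G03840), FD (AT4G35900), CO (AT5G15840), SVP (AT2G22540), AGL24 (AT4G24540), SOC1 (AT2G45660) and LFY (AT5G61850), 9 of 27444 protein-coding genes. A peak belonged to a gene when its summit, the base of highest signal, lay from 3 kb upstream of the transcription start site (TSS) to 3 kb past the gene end. By this rule the 9 windows held 160 of the 170783 summits in the 4 peak lists. The rule uses gene names and positions and no measured value, but these genes and the pathway list were chosen with earlier results of these data known.

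The libraries came from flowers of 4-week-old plants of the Columbia-0 accession, grown in a greenhouse under long days. Wild type (WT) was set against mbd9-3, a T-DNA insertion mutant of MBD9. The MBD9 protein, which has a methyl-CpG-binding domain, works with the SWR1 remodelling complex, which loads the histone variant H2A.Z into nucleosomes. Each genotype had 2 replicates. The study calls its ATAC-seq replicates biological and made them from nuclei of bulk inflorescence tissue, but the sources used here do not say how many plants went into each, so p-values measure only the spread between these libraries. ATAC-seq (assay for transposase-accessible chromatin with sequencing) marks DNA that a transposase can enter. Whole flowers mix many cell types, and a region open in fewer cells cannot be told apart from one that is less open in each cell.

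The photoperiod and other inputs to flowering meet at a small set of genes. CO, a zinc-finger transcriptional regulator made active by long days, switches on FT and its close relative TSF in the vasculature of leaves. FT protein moves to the shoot apex and works there with the bZIP factor FD, while TFL1, a related protein, opposes it. SVP, a MADS-domain repressor, holds back FT and SOC1. SOC1 and AGL24, also MADS-domain factors, promote LFY, which gives new primordia floral identity. An enhancer downstream of FT, known as Block E, has been described, and sequence 3′ of TFL1 is known to be needed for its expression in the inflorescence.

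The 4 lists held 44004 and 43962 peaks in WT and 45208 and 37609 in mbd9-3. Median peak height was 10 to 14 tags, so that a weakly open region could easily go unlisted, and a missing peak means that none was detectable at this depth. Each peak carries a fold enrichment over the local background of its own library. Because the lists were made separately, folds were turned into a rank percentile within each list, where 100 is the highest fold. Tissue labels were checked against 7 floral homeotic and SEP genes and 4 root genes. A summit within 1 kb upstream of the TSS was present in all 4 libraries for 4 of the 7 floral genes (AP1, SEP1, SEP2 and SEP3, but not AP3, PI or AG) and for 0 of the 4 root genes (WOX5, PLT1, RHD6 and COBL9), against 34.3% of all protein-coding genes. Among the root genes COBL9 had a promoter summit in 3 libraries and RHD6 in 2, and 3 of the 4 had a summit somewhere in the window in all 4 libraries, so the check rests on few genes.

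The strongest open regions of these genes lay past the gene end or inside the gene for all but SVP and AGL24. Sequences are shown for the 6 whose stretch held no untranslated exon bases. The stretches of FD, SVP and AGL24 held such bases and are not shown. They are read from the RefSeq TAIR10.1 assembly on the plus strand, 5′ to 3′. FT is given as 250 bases inside its region of 345 bp and the others as 101 bases centred on the summit. Capitals mark the G-box CACGTG, bound by bZIP and bHLH factors, the CCAAT box (CCAAT, or ATTGG on the other strand), bound by NF-Y complexes, and the element TGGGCC (or GGCCCA), which was added to the search after the sequences had been seen.
FT, chr1:24335206-24335455, downstream of the gene: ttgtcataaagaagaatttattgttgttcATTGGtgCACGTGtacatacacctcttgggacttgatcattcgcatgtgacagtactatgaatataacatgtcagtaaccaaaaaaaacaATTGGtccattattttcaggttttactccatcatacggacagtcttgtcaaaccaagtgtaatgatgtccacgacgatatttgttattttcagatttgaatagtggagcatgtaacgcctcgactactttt
TSF, chr4:10999304-10999404, downstream of the gene: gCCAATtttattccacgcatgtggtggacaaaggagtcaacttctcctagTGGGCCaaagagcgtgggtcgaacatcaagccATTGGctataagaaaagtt
TFL1, chr5:1023035-1023135, downstream of the gene: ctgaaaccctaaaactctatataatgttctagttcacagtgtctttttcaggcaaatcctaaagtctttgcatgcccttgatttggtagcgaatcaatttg
CO, chr5:5169748-5169848, downstream of the gene: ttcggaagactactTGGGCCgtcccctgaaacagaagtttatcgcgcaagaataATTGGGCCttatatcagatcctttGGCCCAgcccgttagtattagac
SOC1, chr2:18807041-18807141, downstream of the gene: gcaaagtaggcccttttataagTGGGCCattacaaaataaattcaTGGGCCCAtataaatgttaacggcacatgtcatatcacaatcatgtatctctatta
LFY, chr5:24845426-24845526, coding exon: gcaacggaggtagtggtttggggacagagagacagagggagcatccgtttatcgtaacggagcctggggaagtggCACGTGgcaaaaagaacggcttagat

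The FT stretch held 1 G-box and 2 CCAAT boxes. Of all shared regions read over the same 250 bases, 17.6% held a G-box and 50.8% a CCAAT box. Over 101 bases, the TSF site held 2 CCAAT boxes, the CO site 1 and the LFY site a G-box, against 27.9% of shared regions with a CCAAT box and 12.9% with a G-box. TGGGCC occurred once at TSF and 3 times each at CO and SOC1, where both strands were read and overlapping matches counted. In CO one match overlaps the CCAAT box, and in SOC1 a pair of matches overlaps in TGGGCCCA. This element was present in 18.2% of shared regions. The C-box GACGTC (2.39% of shared regions over 101 bases) and the CArG box bound by MADS-domain factors (1.32%) occurred in none of the 6. Among the strongest sites not shown, that of SVP held 1 CArG box within its 101 bases. The TFL1 sequence held no searched motif. A match is a description of the letters, not a binding site.

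Open chromatin was found around every one of the 9 genes, but summits in the kilobase before the TSS were listed in some libraries only. A summit in the window was present in all 4 libraries for 9 of 9 genes, against 87.7% of all protein-coding genes. The promoter, here the 1 kb upstream of the TSS, held a summit in all 4 libraries for 0 of 9 genes, against 34.3% of all genes. Promoter summits were listed at 2 and 1 of the 9 genes in WT and at 2 and 4 in mbd9-3, and in at least 1 library at TSF, CO, SVP, AGL24 and SOC1. For the other 4, FT, TFL1, FD and LFY, no promoter summit was listed in any library, a property of 35.5% of all genes. Downstream summits were present in all 4 libraries for 7 of 9 genes (all except AGL24 and LFY), against 49.7%. Distal summits, from 1 to 3 kb upstream, were present in all 4 for 5 of 9 (TSF, FD, SVP, AGL24 and LFY), against 32.7%. At TSF, SVP, AGL24 and LFY they included a site at the start of a neighbouring gene, described below. Summits inside the gene were present in all 4 for 5 of 9 (TSF, CO, SVP, AGL24 and LFY), against 27.7%. A peak interval covered the TSS itself in all 4 libraries at SVP and AGL24 only, 2 of 9 against 17.7% of all genes, and their summits, just inside the gene, count as gene body here.

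**Figure D1:**
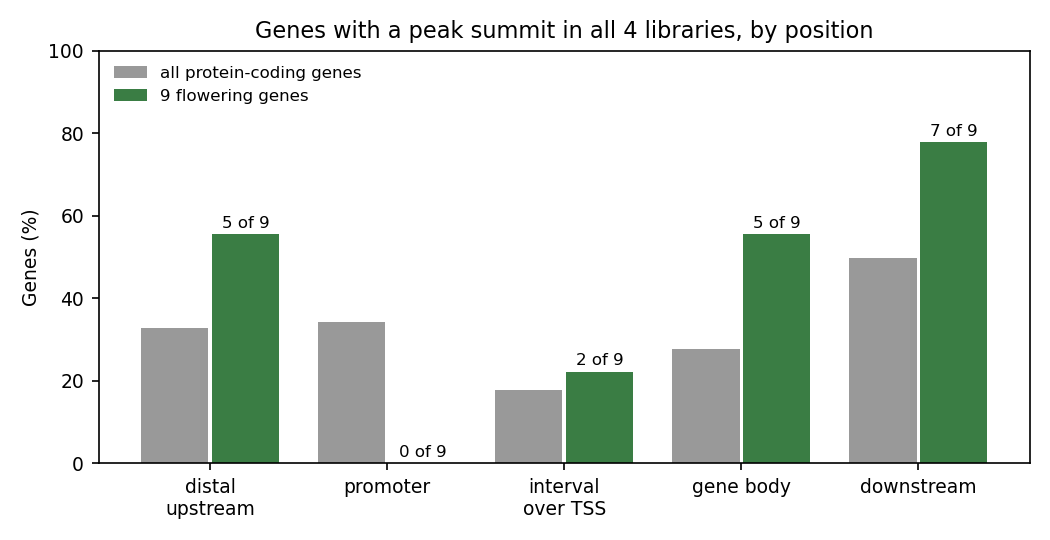
Share of genes (%) with a peak summit in all 4 libraries, by position, for all 27444 protein-coding genes (grey bars) and the 9 flowering genes (green bars, with the count of genes above each); the class over the TSS counts peak intervals. The promoter bar of the flowering genes is at 0 of 9, against 34.3% of all genes, and the downstream bar is at 7 of 9, against 49.7%.

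The place of the single strongest summit is not independent of these counts. It lay in the promoter in no library for 9 of 9 genes, which was also true of 65.0% of all genes. For FT, TFL1, FD and LFY this was fixed in advance, since no promoter summit was listed there. The strongest summit lay downstream in all 4 libraries for FT, CO and SOC1, 3 of 9, against 20.2% of all genes. At SVP and AGL24 it was distal in all 4, and at LFY it was inside the gene in all 4. With 9 genes these shares are descriptions, and no share was tested against the rest of the genome. In the rank of their strongest summits the 9 genes were near the genome. The median percentile was 83.9 and 87.6 in WT and 84.0 and 77.9 in mbd9-3, against 81.1, 82.6, 80.8 and 79.0 over all genes. Their windows held more summits on average: 4.556 and 4.889 in WT and 4.667 and 3.667 in mbd9-3. The means over all genes were 3.565, 3.603, 3.617 and 3.065, and gene length was not matched.

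**Figure D2:**
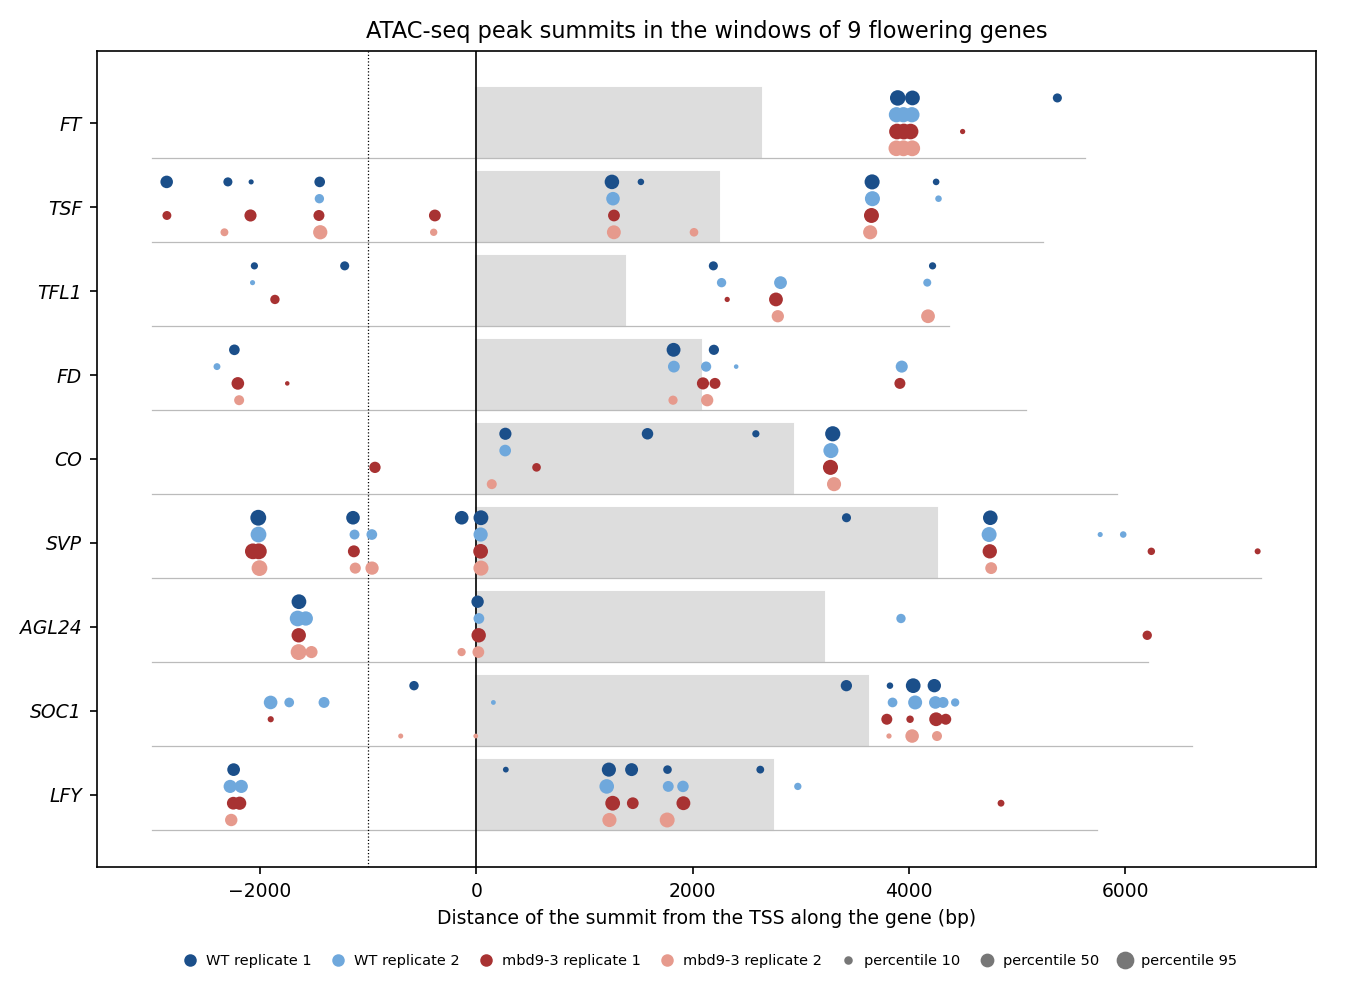
Every peak summit in the windows of the 9 genes by its distance from the TSS (bp), with 1 row of points for each library, WT in blue and mbd9-3 in red, point area by rank percentile, gene bodies as grey blocks and the dotted line at 1 kb upstream. FT has points only past its gene end, most of them in a tight group in all 4 libraries, and the space between the dotted line and the TSS holds few points at any gene.

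FT, the mobile signal, had the second strongest mean rank among sites inside the windows and the simplest map. No summit lay in the 3 kb upstream of FT or inside the gene (chr1:24331373-24333999) in any of the 4 libraries. A region 1363 bp past the gene end, 345 bp wide, was open in all 4. Its highest fold was 9.10 and 8.57 in WT and 10.7 and 11.3 in mbd9-3. The percentiles were 93.5 and 90.2 in WT and 96.7 and 97.5 in mbd9-3, so that both mutant libraries ranked above both WT libraries. Within it the lists gave up to 3 summits, at 3896 bp from the TSS in WT replicate 1 and 4030 bp in mbd9-3 replicate 2 for the highest of them. Whether this region is part of Block E was not tested, since no source used here gives coordinates for it.

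TSF, which acts in parallel with FT, also had its most open region well past its end. The summit lay 1417 bp past the gene end and had folds of 7.28 and 7.94 in WT and 6.62 and 5.74 in mbd9-3. Percentiles were 87.8 and 87.6 in WT and 86.4 and 76.1 in mbd9-3, with both WT libraries above both mutant libraries. An intron site 1267 bp from the TSS had percentiles of 81.1 and 69.6 in WT and 51.2 and 73.6 in mbd9-3, and the genotypes overlapped. A distal site 1450 bp upstream lay 43 bp before the TSS of LSD1 (AT4G20380), a cell death regulator transcribed away from TSF. Its percentiles were 40.2 and 29.4 in WT and 43.4 and 77.9 in mbd9-3, and mbd9-3 replicate 2 stood apart as the only high value. TSF also had the one region found in both mbd9-3 libraries and neither WT library, a promoter site 390 bp upstream with folds of 3.61 and 2.85 and percentiles of 51.6 and 15.5.

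TFL1, the antagonist of FT, was the least consistently open of the 9. Its highest-ranking region lay 1415 bp past the gene end and was listed in 3 of 4 libraries. The folds there were 4.76 in WT replicate 2 and 4.78 and 4.31 in mbd9-3, while WT replicate 1 had no peak. A site 2804 bp past the end was also listed in 3 libraries, with percentiles of 14.6 and 19.6 in WT and 72.2 in mbd9-3 replicate 2. A distal site 2062 bp upstream was found in both WT libraries and neither mutant library, at percentiles of 14.6 and 3.69, which places it among the weakest peaks of each list. No TFL1 region was called in all 4 libraries, so the gene has no value in the test of shared regions.

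FD, the partner of FT at the apex, had no strongly open site in its window. A summit in its 3′ UTR, 1823 bp from the TSS, had percentiles of 73.4 and 51.5 in WT and 28.1 in mbd9-3 replicate 2, and was not listed in mbd9-3 replicate 1. A distal site 2222 bp upstream ranked at 40.2 and 12.7 in WT and at 59.7 and 34.6 in mbd9-3. A site 49 bp past the gene end ranked at 36.5 and 36.6 in WT and at 54.4 and 55.9 in mbd9-3, with both mutant libraries above both WT libraries. The much stronger FD site just outside the window, 3312 bp upstream in intergenic sequence, had folds of 5.82 and 10.8 in WT and 8.10 and 7.53 in mbd9-3.

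CO, the photoperiod regulator that activates FT, had a single strong site. It lay 364 bp past the gene end, inside the long non-coding RNA gene AT5G02465. It was also 618 bp before the TSS of AT5G15843, a protein-coding gene on the other strand, and so within that gene's 1 kb promoter. Folds were 7.64 and 7.94 in WT and 6.99 and 5.74 in mbd9-3, and percentiles were 89.3 and 87.6 in WT and 88.1 and 76.1 in mbd9-3. The genotypes overlapped, with mbd9-3 replicate 2 the lowest. A 5′ UTR site 266 bp from the TSS was listed in 3 libraries at percentiles of 54.9, 50.1 and 34.6, and was missing from mbd9-3 replicate 1.

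SVP, the repressor, carried the most open region in the set. Its distal site, 2013 bp upstream, had folds of 12.4 and 11.8 in WT and 12.6 and 10.6 in mbd9-3. The percentiles of 97.9, 97.1, 98.3 and 96.7 overlapped between genotypes. This summit lies 18 bp before the TSS of AT2G22530, a gene read in the opposite direction, so it is much closer to that neighbour's start than to that of SVP. A further region centred 1050 bp upstream had distal summits ranked at 70.7 and 34.2 in WT and at 52.6 and 44.5 in mbd9-3, and in replicate 2 of each genotype a higher summit on its promoter side, at 40.8 and 66.5. At the SVP TSS itself, 41 bp into the 5′ UTR, the percentiles were 84.9 and 77.4 in WT and 83.8 and 87.9 in mbd9-3. A site 495 bp past the gene end ranked at 82.2 and 86.6 in WT and at 78.7 and 51.6 in mbd9-3, with both WT libraries higher.

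AGL24, a promoter of flowering related to SVP, also had its strongest site at a neighbour. The summit 1644 bp upstream lies 42 bp inside the 5′ UTR of AT4G24550, which is transcribed in the other direction. Folds were 6.50 and 11.2 in WT and 5.52 and 12.2 in mbd9-3. Here the 2 libraries of each genotype differed more than the genotypes did, and replicate 2 was high in both. The site 20 bp past the AGL24 TSS had percentiles of 56.9 and 41.1 in WT and 79.5 and 50.6 in mbd9-3, which overlapped.

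SOC1, an integrator downstream of FT and SVP, was open between its own end and that of AGL6 (AT2G45650), a MADS-domain gene that faces it. The summit 414 bp past the SOC1 end had folds of 6.40 and 5.95 in WT and 3.31 and 5.16 in mbd9-3. Percentiles were 83.4 and 74.8 in WT and 43.4 and 69.5 in mbd9-3, and both WT libraries were higher. The adjoining site, 627 bp past the end, had percentiles of 67.7 and 60.1 in WT and 72.5 and 34.5 in mbd9-3, which overlapped. Upstream, no SOC1 region inside the window was listed in more than 2 libraries. Just outside it, 3301 bp upstream and inside the non-coding RNA gene AT2G09655, lay a site with folds of 17.8 and 14.5 in WT and 13.6 and 11.4 in mbd9-3. Its percentiles of 99.6, 99.0, 98.7 and 97.7 were above those of SOC1's own window in every library.

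LFY, the floral identity gene, was the only member with its strongest site inside the gene in all libraries. A coding exon site 1228 bp from the TSS ranked at 76.4 and 81.8 in WT and at 84.0 and 76.7 in mbd9-3. A site 1838 bp from the TSS, in an intron, had folds of 2.88 and 3.95 in WT and 4.84 and 7.08 in mbd9-3. Its percentiles were 23.7 and 48.1 in WT and 73.5 and 86.2 in mbd9-3, and the genotypes did not overlap. The distal site 2256 bp upstream lies 151 bp inside GUT1 (AT5G61840), a divergent neighbour known for its part in cell wall glycan synthesis, and ranked between 57.2 and 66.0 in the 4 libraries. Thus TSF, SVP, AGL24 and LFY each had a distal site within 151 bp of the start of a head-to-head neighbour, and assignment to either gene rests on position alone. The share of all genes with such a site was not computed, so this shows nothing particular to these genes.

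**Figure D3:**
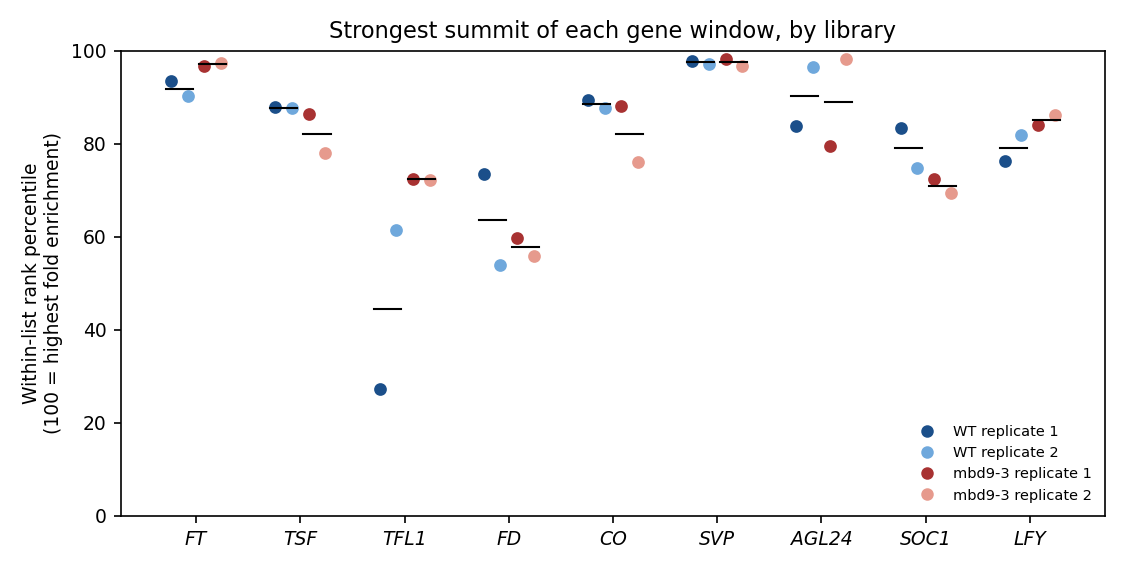
Rank percentile within each list (100 is the highest fold enrichment) of the strongest summit in each gene window, with 1 point per library, WT in blue and mbd9-3 in red, and a line at each genotype mean. SVP and FT sit above 90 in all 4 libraries, and TFL1 has the widest spread, from 27.2 to 72.5.

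The order of the genes by their strongest summit followed from these values. SVP (96.7 to 98.3) and FT (90.2 to 97.5) came first and overlapped with AGL24 (79.5 to 98.3). TSF (77.9 to 87.8), CO (76.1 to 89.3), LFY (76.4 to 86.2) and SOC1 (69.5 to 83.4) formed a middle group whose ranges overlapped one another. FD (53.8 to 73.4) and TFL1 (27.2 to 72.5) came last, overlapping each other and the low end of SOC1. At TSF, TFL1, FD, SOC1 and LFY the strongest summit was not the same site in all 4 libraries, and at FD it differed in each. The ranges of these genes, and their genotype differences in strongest percentile given below, therefore compare unlike sites. Only SVP and FT lay above every value of the middle and last groups in all 4 libraries.

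The comparison of genotypes asked whether loss of MBD9 changes accessibility at these genes. No difference between mbd9-3 and WT passed a test. Summits in the 9 windows numbered 41 and 44 in WT (mean 42.5 ± 2.12, SD, n = 2) and 42 and 33 in mbd9-3 (37.5 ± 6.36), with p = 0.667 by a two-sided exact permutation test. Promoter summits numbered 2 and 1 in WT and 2 and 5 in mbd9-3 (exact permutation p = 0.667), and distal summits 11 and 12 in WT and 13 and 8 in mbd9-3 (exact permutation p = 1.0). Summits inside the gene numbered 15 and 9 in WT and 7 and 8 in mbd9-3 (exact permutation p = 0.333), with both mutant libraries below both WT libraries. Downstream summits numbered 13 and 22 in WT and 20 and 12 in mbd9-3 (exact permutation p = 0.667). With 2 libraries against 2 the smallest p possible is 0.333. The total was lowest in mbd9-3 replicate 2, the library with the shortest list. Without it, the difference in all summits was −0.5 in place of −5.0, and that in promoter summits 0.5 in place of 2.0. The difference in distal summits turned from −1.0 to 1.5. With the same number of top peaks taken from each list, the windows held 36 and 37 summits in WT and 34 and 33 in mbd9-3. They held 24 and 22 in WT and 18 and 19 in mbd9-3 with 1 kb on each side. Summits nearest to the member itself numbered 25 and 24 in WT and 21 and 23 in mbd9-3. In each of these settings both mutant libraries were below both WT libraries. At a −log10 q of at least 5 the counts tied in part, at 16 and 20 against 16 and 16. They also did with rows sharing an interval counted as 1, at 38 and 35 against 35 and 28. Without mbd9-3 replicate 1 the differences in all, promoter and distal summits were −9.5, 3.5 and −3.5, and without either WT library the distal difference was −1.5 or −0.5.

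Merging overlapping peaks of the 4 lists gave 60 regions in the 9 windows, of which 18 were called in all 4 libraries, or 30.0%, against 30.4% of the 64218 regions of the genome. Regions listed in both libraries of a single genotype were few. Of the 60, 2 were found in both WT libraries only (TSF 4262 bp from its TSS and TFL1 2062 bp upstream, against 2.69% of all regions), and 1 in both mbd9-3 libraries only (the TSF promoter site, against 1.54%). These 3 shares are near those of the genome.

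For the 19546 regions of the genome called in all 4 libraries, a limma fit to rank-based normal scores called 0 at an adjusted p under 0.05 (0.0%), and 993 (5.08%) had an unadjusted p under 0.05. Of the 18 member regions, 0 were called and 1 had an unadjusted p under 0.05, the LFY intron site. Its score was 1.24 ± 0.37 (SE) higher in mbd9-3, higher in 2 of 2 mutant libraries, with a Benjamini-Hochberg adjusted p of 0.956 in limma, so the difference was not past the threshold. The FT downstream site was 0.49 ± 0.31 higher in mbd9-3 (limma adjusted p = 0.959). Both mbd9-3 libraries ranked above both WT libraries at 4 of the 18 (FT, the TSF distal site, the FD site past the gene end and the LFY intron), against 13.3% of all shared regions. The reverse held at 3 (TSF and SOC1 nearest past the end, and SVP past the end), against 20.2%. The median difference over the 18 was 0.06 on the score scale, against −0.06 over all shared regions.

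**Figure D4:**
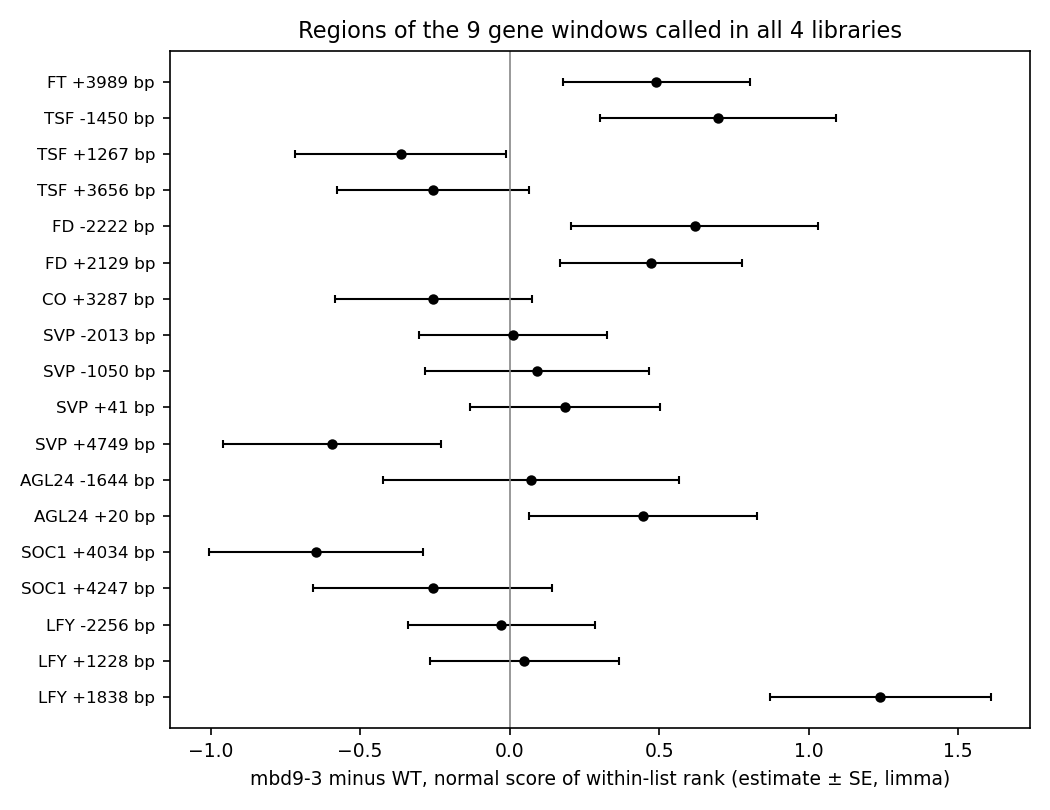
Difference between mbd9-3 and WT in the normal score of the within-list rank (limma estimate ± SE, 2 libraries per genotype) for the 18 regions of the gene windows called in all 4 libraries, each named by gene and distance from the TSS in bp. The LFY intron site at 1838 bp stands farthest from 0, at 1.24, and the SOC1 site at 4034 bp is the lowest, at −0.65.

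Other genes of the flowering pathways gave a contrast in promoter summits. Of 39 such genes, which act in the clock, light, repressor, NF-Y, PEBP and MADS branches, 20 (51.3%) had a promoter summit in all 4 libraries, against 0 of the 9 and 34.3% of all genes. No such contrast was seen over the TSS itself, which a peak interval covered in all 4 libraries at 6 of the 39. The same held at 2 of the 9 and at 17.7% of all genes. A summit anywhere in the window was present in all 4 libraries for 38 of the 39. None had a promoter summit in both libraries of 1 genotype and neither of the other: 0 in both WT only and 0 in both mbd9-3 only. The matching share over all genes was not computed, so these counts show nothing particular to the 39. Among those 20 genes, the highest mean promoter percentiles were those of AGL19, a MADS-domain activator of flowering (99.8), GI, a clock-linked activator of CO (98.7), and COP1, a ubiquitin ligase that removes CO protein (97.5). The lowest of the 20 were those of TEM2 (30.2) and TEM1 (38.6), repressors of FT, and CAL (36.9), a floral identity gene.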

How the data were processed

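ATAC-seq of flowers was analysed from 1 peak list per library, 2 WT and 2 mbd9-3. The authors trimmed reads, mapped them to TAIR10 and deposited peaks called in each library without pooling. Submitters' notes name Trim Galore, Bowtie2 and SAMtools, whereas the study's methods name Bowtie as the mapper. The peak caller is not given in the sources used here. The deposited columns used were the fold enrichment (a ratio), the −log10 p and −log10 q values and the summit offset, with the display score read only to check it. No read depth is listed; the lists start at a −log10 p of 2, and peak heights in tags were solved from fold and p. Gene models were those of RefSeq TAIR10.1.

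Fold enrichments were ranked within each list, ties shared. Peaks sharing at least 1 bp across lists were merged, and normal scores of the ranks of regions called in all 4 libraries were tested with limma 3.58.1 in R 4.3.3, adjusted by Benjamini-Hochberg over all regions. The limma fit was tried on simulated data with known changes, drawn with independent noise of 1 size for all regions. The real values are ranks of regions called in every list, so this trial does not show how large a change could be detected. Summit counts were compared by an exact two-sided permutation test over libraries. Named sites were, for each gene, the strongest region by mean rank, the strongest distal region, any region with an unadjusted p under 0.05, and further regions chosen after their values were seen. Replicates share numbers, but no label says that these pair libraries. Members and lists were chosen with earlier results of these data known. Alternatives were a −log10 q of at least 5, equal list lengths, other window sizes, and rows sharing an interval counted as 1. Further ones were only summits nearest to the member, ranking by −log10 p, a block for the replicate number and the omission of each library in turn.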

Additional observations from a re-analysis of the deposited data

How the results depend on the processing

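The count of limma calls over shared regions stayed at 0, as did that over the regions of the 9 genes, when ranking by −log10 p, with a −log10 q of at least 5 (9025 regions, smallest adjusted p 0.0967), with the replicate block and without any 1 library. With the replicate number as a block, calls by limma numbered 0 and regions under an unadjusted p of 0.05 numbered 1327 (6.79%), the LFY intron site among them (limma adjusted p 0.673). Whether the numbers pair libraries could not be judged from 2 pairs. Leaving out 1 library moved the difference in summits in the 9 windows from −9.5 to −0.5, in promoter summits from 0.5 to 3.5, in distal summits from −3.5 to 1.5, and in the median strongest percentile from −0.814 to 0.342, all nearer to 0 than the −1.285 with every library. Promoter summits no longer differed (0.0) at a −log10 q of at least 5. With 1 kb on each side the median difference in the strongest percentile was −6.82 in place of −1.29, over fewer genes, since FT has no summit there. Under it AGL24 turned from −1.29 to 16.1, TSF moved from −5.54 to −12.7, and TFL1 turned from 28.0 (10.8 to 45.1 without 1 library) to −24.0. At TFL1 that window keeps a single weak region, which mbd9-3 replicate 2 lacks. The same window leaves out the strongest sites of AGL24 and TSF by construction.

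Fold enrichment has no scale common to the lists, weak peaks rest on few tags, and a window of 3 kb takes in starts of neighbouring genes, so that position, not function, ties a site to a gene.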

Other observations

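Beyond the 3 kb limit, the upstream sequence of some genes held further sites. FT had weak summits 5.18 kb upstream in 3 of 4 libraries, with folds of 2.55 and 2.86 in WT and 3.31 in mbd9-3 replicate 1, and 4.57 to 4.61 kb upstream in 3 of 4, with folds of 2.91 and 3.49 in WT and 3.23 in mbd9-3 replicate 2. An enhancer far upstream of FT, known as Block C, has been described, and whether these summits fall in it was not tested. Upstream of CO, a pair of sites called in all 4 libraries lay 4549 and 5143 bp from the TSS, 263 bp inside COL1 (AT5G15850), a close relative of CO, and 121 bp inside AT5G15853.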
